A study of Mus musculus with 16 samples.

Results

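The late phase of the LPS response, from 12 to 24 h, was measured in bone-marrow-derived macrophages by setting the 4 arrays taken after 24 h against the 4 taken after 12 h. The members were chosen by their sample titles alone, and they are 8 of the 16 arrays of a time course over 0, 6, 12 and 24 h. At 24 h there were 2 arrays of miR-155 knockout cells (KO) and 2 of wild-type cells (WT), and at 12 h again 2 KO and 2 WT. All came from marrow of male C57BL/6Jax mice, grown for 9 days in medium with 10 ng/mL M-CSF, which drives macrophage differentiation, and all 8 samples had received 100 ng/mL LPS. Whether the replicates are separate mice or separate cultures is not stated, so p-values measure the spread between these samples, which may be technical. The 2 replicate numbers were scanned in separate sessions, called session 1 and session 2 here.

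Macrophages sense LPS, which Gram-negative bacteria carry on their surface, through the receptor Tlr4. The first hours bring a burst of cytokine and chemokine transcripts driven by NF-kB, followed by genes that respond to the secreted type I interferon. The response also induces its own inhibitors, among them regulators of NF-kB, of cytokine signalling and of mRNA stability, and in its later hours macrophages change their metabolism, surface receptors and growth.

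The arrays carried no probe for the host gene of miR-155, so the loss of the microRNA was not checked. The 8 arrays had upper quartiles of 332 to 634 intensity units, 56.0% to 65.2% of their probes were well above background, and no spot was saturated (0). The 9 macrophage markers measured, among them Csf1r, Cd14 and Lyz2, were well above background on all 8 arrays. Of 6 mast cell and basophil markers 0 passed the detection filter, and of 9 T and NK cell markers 3 did. The sessions stood further apart than the times: sessions separated on a first principal component with 48.2% of the variance, and times on a second with 28.1%. The session is a term of the model throughout.

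Values are log2 signal relative to the 75th percentile of the array, so 0 is that percentile, and a step is the fitted 24 h value minus the 12 h value, given ± its standard error. Of 16368 genes tested, 4649 changed between 12 and 24 h (28.4% of those tested, limma, adjusted p under 0.05). At 24 h, 2170 were higher (13.3%) and 2479 were lower (15.1%). In 17% of the genes tested (2778) the arrays of the 2 times did not overlap, with 24 h higher in 8.88% and lower in 8.09%. The large changes were mostly falls. At least 2-fold, 701 genes were higher and 950 lower. At least 4-fold, 57 were higher and 165 lower, and at least 8-fold, 2 were higher and 31 lower. In bulk RNA fewer cells of a type and less RNA per cell cannot be told apart.

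Of the called genes, 4611 of 4649 (99.2%) had the same sign in both genotypes and both sessions. On 3 of the 4 slides arrays of both times lay side by side, and 2086 of the 2170 higher genes (96.1%) and 2381 of the 2479 lower genes (96.0%) had the same sign within each of those 3 slides. On slides 3 and 4 the arrays of the 2 times also differed in genotype. The genes were called on these same arrays, so agreement in sign across pairs and slides follows in large part from the selection. The number of calls depended on the model. It was 820 without the session term (427 higher, 393 lower), 2473 with the slide as a block on the 8 arrays and 2620 with the slide as a block on all 16. Without the first WT array of 24 h it was 2803, and without the first WT array of 12 h 3011. Without the first KO array of 12 h it was 2963, and without the second 3033. The first WT array of 12 h was the only one of the 8 on its slide. The slide block on the 8 arrays therefore took it out of the step, here and below, and left fewer degrees of freedom. The median step of all genes was -0.066 both with that block and without that array. The balance of rises and falls depended on the scaling. Higher genes were 46.7% of the calls, against 57.8% after quantile normalization (2593 higher, 1896 lower) and 34.5% after normexp background correction (2170 higher, 4117 lower). The median step of all genes was -0.06 in the scaling used here, 0.03 after quantile normalization and -0.13 after normexp.

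**Figure D1:**
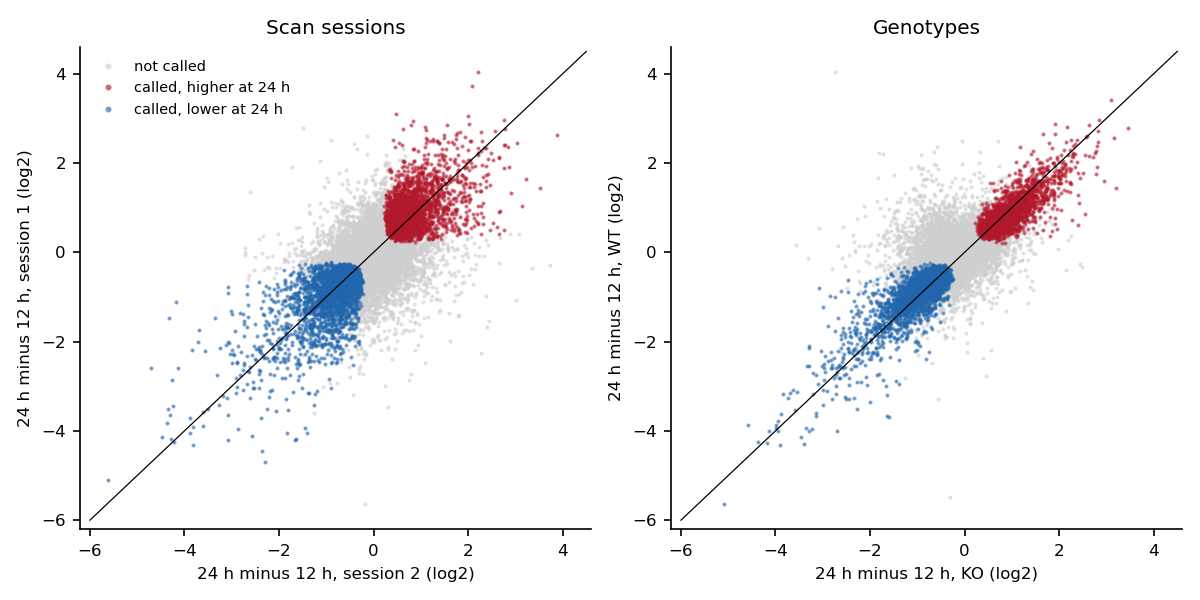
Step from 12 to 24 h of each gene, 24 h minus 12 h in log2 units, in session 1 (vertical) against session 2 (horizontal) on the left and in WT (vertical) against KO (horizontal) on the right, with called genes in red (higher at 24 h) and blue (lower at 24 h) and the line of equality in black. Nearly all called genes lie in the quadrants where both steps have the same sign, and steps correlated across genes at 0.64 between sessions and 0.76 between genotypes. Called genes were selected on these same arrays, and genes are not independent replicates.

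The ranking of falls and rises covered called genes with an ordinary symbol (not a clone or predicted-gene name) and the same sign in all 4 pairs. All of the 15 largest falls there were in genes that LPS had induced in the first 6 h. F2r, the thrombin receptor, stood at -7.74 and -8.53 on the KO arrays (session 1 and 2, an order kept throughout) and at -7.80 and -7.95 on the WT arrays at 24 h, against -2.99 and -3.11 (KO) and -2.37 and -2.12 (WT) at 12 h. All arrays of 24 h lay far below those of 12 h, and at 24 h the probe was not well above background on any of the 4. The fall was therefore at least 11.4-fold, where such a bound sets the 12 h mean against the dimmest signal still well above background (step -5.36 ± 0.20, adjusted p = 0.000166). Upp1, a uridine phosphorylase of pyrimidine salvage, was also below that limit at 24 h and fell at least 8.30-fold.

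Nudt17, a member of the Nudix hydrolase family, was at -4.28 and -2.99 (KO) and -3.73 and -2.62 (WT) at 24 h, against -0.14 and 1.59 (KO) and 0.40 and 1.76 (WT) at 12 h. Every array of 24 h lay below every array of 12 h, and the step was -4.31 ± 0.13 (19.8-fold lower, adjusted p = 0.000101). Lck, a Src-family kinase best known from the T cell receptor, was at -5.44 and -5.20 (KO) and -4.17 and -4.98 (WT) at 24 h, against -0.91 and -1.35 (KO) and -0.36 and -0.23 (WT) at 12 h. The times did not overlap here either (step -4.23 ± 0.19, adjusted p = 0.000207). Lck is on the T and NK list, whose summed level was 0.166 to 0.365 times the 75th percentile at 24 h and 0.582 to 1.26 times at 12 h. That sum includes Lck itself. The 3 members tested, Cd3e, Cd4 and Lck, were well above background on all 8 arrays, and Cd3e and Cd4 were not called. Cd3g, Cd3d, Cd8a, Ncr1, Klrb1c and Gzma did not pass the detection filter. The part of such cells in the fall was not tested.

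Vcam1, an adhesion receptor for integrins on leukocytes, was at -0.01 and -0.20 (KO) and 0.31 and -0.21 (WT) at 24 h, against 4.19 and 3.36 (KO) and 3.89 and 3.45 (WT) at 12 h. The arrays of the 2 times were far apart (step -3.75 ± 0.14, 13.5-fold lower, adjusted p = 0.000166). Its second detected probe fell less, by 1.51 on the log2 scale. Cav1, which builds caveolae, fell by 4.10, Hopx, a homeodomain protein, by 3.98, and Edn1, the precursor of endothelin 1, by 3.65. Cnn3, an actin-binding calponin, fell by 3.96. Macc1 (-3.65) and Trp53i11 (-3.59) completed the set with the chemokines, Il12b and Mmp13 described below. At 24 h the Macc1 probe was well above background on 3 of 4 arrays and the Trp53i11 probe on 1, so these sizes are uncertain.

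The 15 largest rises of that ranking were smaller and mostly in genes that LPS had lowered in the first 6 h (12 of 15). Rtn4r, the Nogo receptor, had the largest fitted step. It was at -3.28 and -3.73 (KO) and -3.21 and -3.21 (WT) at 24 h, against -6.39 and -6.80 (KO) and -5.38 and -7.89 (WT) at 12 h. The arrays of 24 h lay above all of those of 12 h, where the probe was well above background on 1 of 4 arrays (step 3.25 ± 0.40, adjusted p = 0.00269). Pank1, a pantothenate kinase of coenzyme A synthesis, was not well above background on any array of 12 h and rose at least 4.89-fold, and Tmem238, also below that limit at 12 h, at least 2.15-fold. Under normexp the step of Tmem238 was 0.21 and that of the dim Wdr54 0.27, and neither was called.

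Susd3, a sushi-domain protein, was at 3.61 and 1.602 (KO) and 3.66 and 1.73 (WT) at 24 h, against 1.25 and -1.21 (KO) and 1.31 and -1.13 (WT) at 12 h. The sessions differed by about as much as the times, and the times differed within each session (step 2.59 ± 0.14, 6.04-fold higher, adjusted p = 0.000294). Plxnb3, a receptor for semaphorins, was at 0.33 and 1.07 (KO) and 0.79 and 0.82 (WT) at 24 h, against -2.52 and -1.72 (KO) and -1.80 and -1.55 (WT) at 12 h. It was above 0 on every array of 24 h and below 0 on every array of 12 h (step 2.65 ± 0.17, 6.27-fold higher, adjusted p = 0.000465). The palmitoyltransferase Zdhhc14 rose by 2.59 and the inositol phosphate kinase Ip6k3 by 2.44.

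**Figure D2:**
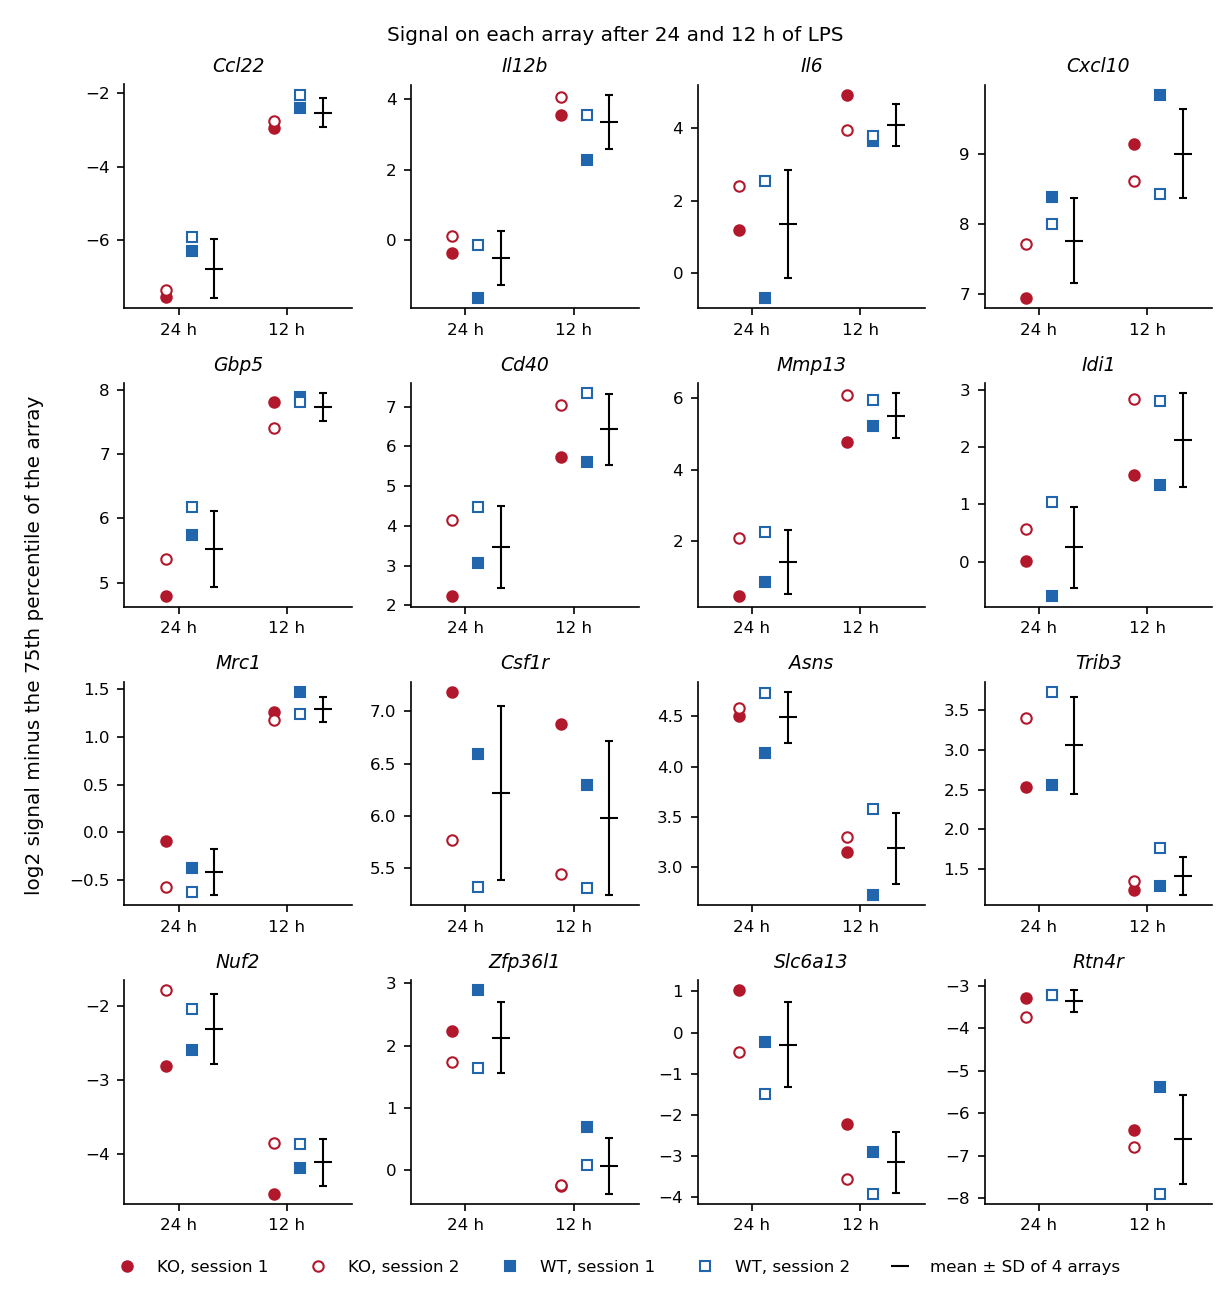
Signal on each of the 8 arrays for 16 genes, as log2 signal minus the 75th percentile of the array (vertical), at 24 h (left in each panel) and 12 h (right), with KO in red circles and WT in blue squares, session 1 filled and session 2 open, and the mean ± SD of the 4 arrays in black. Ccl22, Il12b, Gbp5, Cd40, Mmp13 and Mrc1 are lower on all arrays of 24 h, Asns, Trib3, Nuf2, Zfp36l1 and Rtn4r are higher on all of them, and Csf1r overlaps.

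Of 22 inflammatory cytokines tested, 15 fell and 1 rose, with a median step of -1.33 beside -0.06 for all genes. Over all genes tested 15.1% fell and 13.3% rose, the shares to read beside the counts of this and later lists. Relative to 0 h the median member stood at 5.40 after 6 h, 3.76 after 12 h and 2.34 after 24 h (log2), and 20 of 22 were still above 0 h at 24 h. Il12b, the subunit shared by IL-12 and IL-23, was at -0.37 and 0.12 (KO) and -1.63 and -0.12 (WT) at 24 h, against 3.56 and 4.08 (KO) and 2.27 and 3.55 (WT) at 12 h. The times did not overlap (step -3.86 ± 0.20, 14.6-fold lower, adjusted p = 0.000294).

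Il6, a cytokine of fever and the acute phase, was at 1.19 and 2.40 (KO) and -0.70 and 2.53 (WT) at 24 h, against 4.94 and 3.94 (KO) and 3.65 and 3.80 (WT) at 12 h. The arrays of 24 h lay below those of 12 h but were spread wide, and the step was -4.05 in session 1 and -1.41 in session 2 (fitted -2.73 ± 0.61, adjusted p = 0.0183). The call ended without the first KO array of 12 h (-2.28), the first WT array of 12 h (-2.52) or the first KO array of 24 h (-2.67), and with the slide as a block on the 8 arrays (-2.52). Tnf, the early cytokine of the response, was at 4.83 and 6.34 (KO) and 4.34 and 6.10 (WT) at 24 h, against 6.83 and 6.61 (KO) and 6.30 and 6.44 (WT) at 12 h. One KO array of 24 h overlapped the 12 h range, and its step of -1.14 ± 0.34 (adjusted p = 0.0474) was -1.98 in session 1 and -0.31 in session 2. That call held without the second KO array of 12 h or the second WT array of 24 h and ended without any of the other 6 (-0.89 to -1.33), with the slide as a block (-0.98) and after quantile normalization (-0.82).

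Il10, the main anti-inflammatory cytokine of macrophages, fell by 1.81 ± 0.12, Il18, which is released by inflammasomes, by 2.03 ± 0.19, and Il19, a cytokine of the IL-10 family, by 2.71 ± 0.43. Il1b had a step of -1.29 ± 0.44 and did not pass (adjusted p = 0.0684), though under normexp it did (-1.27). Ifnb1, the type I interferon of this response, averaged 3.31 at 6 h, 0.12 at 12 h and -0.11 at 24 h, and its step was -0.22 ± 0.17 (adjusted p = 0.357). Vegfa, the growth factor of blood vessels, was the 1 member that rose. It was at 0.57 and 0.99 (KO) and 1.52 and 1.26 (WT) at 24 h, against -0.52 and -1.0 (KO) and 0.45 and -0.11 (WT) at 12 h, with no overlap (step 1.38 ± 0.19, 2.60-fold higher, adjusted p = 0.00385). With the slide as a block on all 16 arrays that call ended (1.32).

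Of 20 chemokines tested, 11 fell and 0 rose, with a median step of -1.26. Ccl22, which attracts cells that carry Ccr4, was at -7.53 and -7.34 (KO) and -6.28 and -5.90 (WT) at 24 h, against -2.93 and -2.76 (KO) and -2.39 and -2.04 (WT) at 12 h. All arrays of 24 h were below those of 12 h, and at 24 h only 1 of 4 was well above background (step -4.23 ± 0.17, adjusted p = 0.000166). Ccl17, the other ligand of Ccr4, fell by 2.73 ± 0.20, and Cx3cl1, the membrane-bound fractalkine, by 3.94 ± 0.20.

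Cxcl10 and Cxcl9, interferon-inducible ligands of the receptor Cxcr3, were bright at both times. Cxcl10 was at 6.95 and 7.72 (KO) and 8.38 and 7.999 (WT) at 24 h, against 9.13 and 8.62 (KO) and 9.84 and 8.42 (WT) at 12 h. The ranges nearly touched, and the step was -1.24 ± 0.34 (2.36-fold lower, adjusted p = 0.0345). That call ended without either KO array of 12 h, the first WT array of 12 h or either WT array of 24 h (-1.06 to -1.32), with the slide as a block on the 8 arrays (-1.06) and after quantile normalization (-0.86). Cxcl9 was at 4.91 and 5.47 (KO) and 5.14 and 6.16 (WT) at 24 h, against 5.97 and 6.25 (KO) and 5.99 and 6.98 (WT) at 12 h. One WT array of 24 h lay inside the 12 h range (step -0.88 ± 0.16, adjusted p = 0.00875, not called in the fit to all 16 arrays or with the slide as a block there, -0.56). Ccl5 was among the brightest of these genes and had a step of -0.25 ± 0.11 (adjusted p = 0.127) that turned to 0.12 after quantile normalization.

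The median cytokine step was -1.73 in session 1 and -0.71 in session 2, and that of chemokines -1.83 and -0.67. Within slides 2, 3 and 4 the medians were -1.68, -0.76 and -0.63 for cytokines and -1.68, -0.66 and -0.69 for chemokines, all below 0. With the slide as a block on the 8 arrays 5 cytokines and 5 chemokines were called lower. Leaving out single arrays gave 9 to 15 lower cytokines, fewest without the first WT array of 12 h, and 7 to 15 lower chemokines. The chemokine count was 7 without the first KO or the first WT array of 12 h.

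Promoters of these genes were searched for the letters GGAAANNCC, a form of the NF-kB motif, on both strands from 250 bases before to 50 after the gene start. Its GAAA also occurs in the interferon motif described below, so matches can overlap. They were found in 6 of 13 chemokine promoters (46.2%) and 5 of 16 cytokine promoters (31.2%), against 5.93% of the 10726 tested genes with a promoter and 5.72% of all 27025 promoters in the table. Among called lower members of both lists 7 of 19 had a match. Over all genes called lower the share was 7.40%, and over those called higher 5.47%. Il6 and Cxcl10 are shown, each over 100 bases from RefSeq (GRCm38.p6), read 5′ to 3′ on the strand of the gene with the match in capitals. The Il6 match, on the opposite strand, lies 35 bases before the start and that of Cxcl10 150 bases before it.

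Il6, chr5:30013014-30013113, plus strand: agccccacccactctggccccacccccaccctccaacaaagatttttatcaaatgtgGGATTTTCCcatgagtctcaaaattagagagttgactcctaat
Cxcl10, chr5:92348994-92349093, minus strand: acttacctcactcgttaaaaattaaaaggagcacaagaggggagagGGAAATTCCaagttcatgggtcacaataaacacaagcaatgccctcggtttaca

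Of 54 interferon-stimulated genes tested, 39 fell and 0 rose, with a median step of -0.76. Their median relative to 0 h was 4.96 after 6 h, 4.77 after 12 h and 3.72 after 24 h, and all 54 were above 0 h at 24 h. Gbp5, an interferon-inducible GTPase of cell-autonomous defence, was at 4.79 and 5.37 (KO) and 5.74 and 6.18 (WT) at 24 h, against 7.81 and 7.41 (KO) and 7.89 and 7.80 (WT) at 12 h. The times were separated by more than 1 unit (step -2.21 ± 0.22, 4.62-fold lower, adjusted p = 0.00159). Mx1, an antiviral GTPase of the dynamin family, was at 2.28 and 4.52 (KO) and 4.001 and 4.83 (WT) at 24 h, against 4.99 and 5.81 (KO) and 5.43 and 6.04 (WT) at 12 h. The first KO array of 24 h was the lowest by a wide margin and the times did not overlap (step -1.66 ± 0.30, adjusted p = 0.00908, not called with the slide as a block on the 8 arrays, -1.61). Mx2 fell by 1.63 ± 0.18 and Gbp7 by 1.58 ± 0.25. Members of the Mx and Gbp families are similar in sequence, and cross-hybridisation between them was not tested.

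The list median was -0.84 in session 1 and -0.68 in session 2, and -0.69, -0.51 and -0.79 within slides 2, 3 and 4. With the slide as a block on the 8 arrays 21 members were called lower, and after quantile normalization also 21, with a median of -0.50. Leaving out single arrays gave 26 to 39, fewest without the first KO array of 12 h. GAAA followed by any 2 bases and a second GAAA, a form of the interferon-stimulated response element, was in 22 of 40 promoters of the list (55.0%) and in 18 of 26 called lower. It was in 5.65% of promoters of all genes called lower, 2.31% of those called higher, 3.23% of all tested genes and 3.49% of the table. The matches of Gbp5, 156 bases before the start, and of Gbp7, 44 bases before it, both lie on the opposite strand.

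Gbp5, chr3:142496724-142496823, plus strand: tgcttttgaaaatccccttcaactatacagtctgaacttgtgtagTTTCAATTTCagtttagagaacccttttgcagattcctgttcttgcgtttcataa
Gbp7, chr3:142530236-142530335, plus strand: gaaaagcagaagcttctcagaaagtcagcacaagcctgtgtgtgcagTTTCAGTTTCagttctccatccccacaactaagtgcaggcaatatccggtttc

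Of 35 feedback regulators tested, 20 fell and 2 rose, with a median step of -0.66, and their median relative to 0 h was 1.93 after 12 h and 0.78 after 24 h. Socs1, an inhibitor of Janus kinases, was at 3.01 and 3.69 (KO) and 3.66 and 3.81 (WT) at 24 h, against 5.30 and 5.53 (KO) and 5.24 and 5.67 (WT) at 12 h. The arrays of each time lay close together and did not overlap with the other time (step -1.89 ± 0.14, adjusted p = 0.000723). Socs3, which limits signalling by IL-6, was at 5.37 and 6.92 (KO) and 5.51 and 7.14 (WT) at 24 h, against 7.18 and 7.75 (KO) and 6.83 and 7.77 (WT) at 12 h, and both session 2 arrays of 24 h reached the 12 h range (step -1.15 ± 0.21, adjusted p = 0.00899). The Socs3 call ended with the slide as a block on the 8 arrays (-1.13).

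Dusp2, a MAP kinase phosphatase, fell by 2.62 ± 0.21 and Tnip3, an inhibitor of NF-kB signalling, by 2.32 ± 0.12. Zfp36l1, which binds AU-rich elements and speeds mRNA decay, went the other way. It was at 2.24 and 1.75 (KO) and 2.89 and 1.65 (WT) at 24 h, against -0.26 and -0.24 (KO) and 0.69 and 0.09 (WT) at 12 h. All arrays of 24 h were higher (step 2.06 ± 0.21, 4.17-fold higher, adjusted p = 0.00174), after a mean of 4.597 at 0 h and -0.25 at 6 h. Leaving out single arrays gave 13 to 19 lower regulators, and 13 without the first KO array of 12 h, the first KO array of 24 h or the first WT array of 24 h. Of 30 genes of Toll-like receptor signalling 12 fell and 1 rose (median -0.25), among them the receptors Tlr3 (-1.47) and Tlr6 (-0.90), the adaptor Traf1 (-1.04) and the kinase Irak2 (-0.88). Irak1 had a step of 0.47 whose call ended without 7 of the 8 arrays in turn.

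Of 30 genes that serve antigen presentation or co-stimulation, 18 fell and 1 rose (median -0.66), and the median relative to 0 h was 2.26 after 12 h and 1.84 after 24 h. Cd40, the receptor through which T cells activate macrophages, was at 2.22 and 4.14 (KO) and 3.06 and 4.48 (WT) at 24 h, against 5.73 and 7.05 (KO) and 5.60 and 7.34 (WT) at 12 h. The times did not overlap although session 2 was higher at both (step -2.96 ± 0.17, 7.76-fold lower, adjusted p = 0.000355). Cd83, a marker of mature antigen-presenting cells, fell by 2.50 ± 0.13, the co-stimulatory ligand Tnfsf4 by 2.44 ± 0.16, and the peptide transporter Tap2 by 1.31 ± 0.21. H2-DMb1, a chaperone of class II loading, had a step of 0.49 whose call ended without any of 6 arrays in turn.

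Matrix genes and proteases were 11 lower and 1 higher of 22 tested (median -0.95, and -1.33 and -0.57 in sessions 1 and 2). Mmp13, a collagenase, was at 0.47 and 2.09 (KO) and 0.86 and 2.27 (WT) at 24 h, against 4.76 and 6.08 (KO) and 5.21 and 5.94 (WT) at 12 h. Session 2 was higher at both times, which did not overlap (step -4.07 ± 0.16, 16.8-fold lower, adjusted p = 0.000166). The proteoglycan Vcan fell by 3.34 ± 0.14 and the matrix glycoprotein Tnc by 2.94 ± 0.53. The call for Tnc ended with the slide as a block on the 8 arrays, and at 24 h its probe was well above background on 2 of 4. Mmp19 rose by 0.68 ± 0.11.

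In coagulation and fibrinolysis the change ran in both directions. Thbd, thrombomodulin, which turns thrombin toward anticoagulation, was at -1.66 and -1.103 (KO) and -1.48 and -1.49 (WT) at 24 h, against -3.26 and -3.32 (KO) and -2.997 and -3.17 (WT) at 12 h. The 2 times were tightly grouped and apart (step 1.75 ± 0.16, 3.36-fold higher, adjusted p = 0.00121), after a mean of 1.22 at 0 h and -3.85 at 6 h. Plaur, the urokinase receptor, fell by 2.21 ± 0.40, and its call ended with the slide as a block on the 8 arrays (-1.94). Of 23 genes of complement and coagulation 6 fell and 1 rose (median -0.34). Of 14 acute-phase and antimicrobial genes 6 fell and 2 rose (median -0.52). The 2 that rose were Orm1 (1.34) and Orm2 (0.94), plasma orosomucoids, whose calls ended under normexp (0.23 and 0.28).

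Of 15 genes of arginine, nitric oxide and itaconate metabolism 4 fell and 3 rose (median 0.09). Nos2, the inducible nitric oxide synthase, was at -1.89 and 0.63 (KO) and -0.04 and 1.27 (WT) at 24 h, against 1.29 and 2.13 (KO) and 1.81 and 2.88 (WT) at 12 h. The ranges nearly touched without overlap (step -2.03 ± 0.29, 4.10-fold lower, adjusted p = 0.00436, not called with the slide as a block on all 16 arrays, -1.56). Gch1, which makes the cofactor of Nos2, fell by 1.27 ± 0.21, and Slc7a2, an arginine importer, by 1.73 ± 0.27. Arg1, the arginase that competes for arginine, had a step of 0.20 ± 0.77 (adjusted p = 0.865) with signs that differed between sessions.

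Of 13 prostaglandin and leukotriene genes 4 fell and 3 rose (median -0.06). Ptgs2, the inducible cyclooxygenase, fell by 1.88 ± 0.29, Pla2g4a, which releases arachidonic acid, by 1.14 ± 0.12, and Ptges, the inducible prostaglandin E synthase, by 1.12 ± 0.18. The calls for Ptgs2 and Ptges ended in the fit to all 16 arrays. Ptger2, a receptor of prostaglandin E2, was at 0.76 and -0.75 (KO) and 0.70 and -0.16 (WT) at 24 h, against -0.54 and -3.79 (KO) and -0.90 and -4.16 (WT) at 12 h. At 12 h the session 2 arrays were about 3 units below those of session 1, and the second KO array of 24 h overlapped the 12 h range (step 2.48 ± 0.44, adjusted p = 0.00842). Lta4h, of leukotriene B4 synthesis, rose by 1.09 ± 0.11 and the receptor Ptger4 had a step of 0.67 whose call ended without any of 3 arrays in turn.

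**Figure D3:**
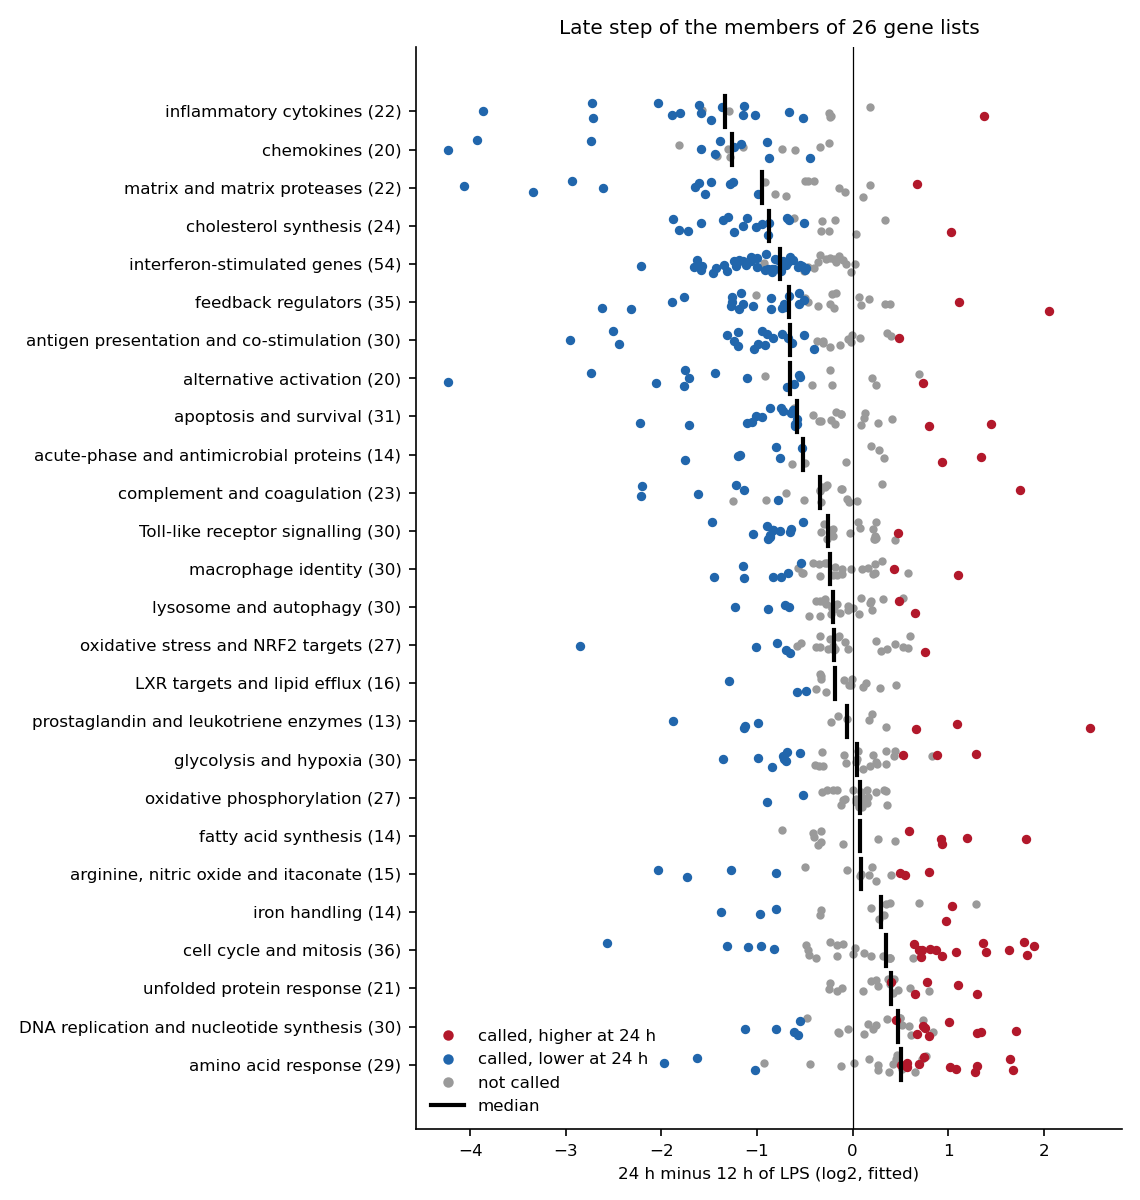
Step of each member of 26 gene lists, 24 h minus 12 h in log2 units (horizontal), ordered from the lowest median (top) to the highest (bottom), with the number of members tested in parentheses, called members in red (higher at 24 h) and blue (lower at 24 h), others in grey, and the median as a black bar. Cytokines (median -1.33), chemokines (-1.26), matrix genes (-0.95) and cholesterol synthesis (-0.88) lie furthest to the left, and the amino acid response (0.51) furthest to the right.

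The genes of the amino acid response are switched on by Atf4 when amino acids run short or the endoplasmic reticulum is stressed. Of 29 tested, 11 rose and 3 fell (median 0.51), and their median relative to 0 h was -0.35 after 6 h, 0.34 after 12 h and 0.63 after 24 h. Asns, asparagine synthetase, was at 4.504 and 4.58 (KO) and 4.14 and 4.73 (WT) at 24 h, against 3.15 and 3.30 (KO) and 2.73 and 3.58 (WT) at 12 h. All arrays of 24 h were higher (step 1.30 ± 0.16, 2.46-fold higher, adjusted p = 0.00271, not called with the slide as a block on all 16 arrays, 1.09), and Asns had not been called between 0 and 6 h. Trib3, a pseudokinase that restrains Atf4, was at 2.53 and 3.40 (KO) and 2.55 and 3.73 (WT) at 24 h, against 1.24 and 1.35 (KO) and 1.29 and 1.76 (WT) at 12 h. The times did not overlap (step 1.64 ± 0.19, 3.13-fold higher, adjusted p = 0.00212), and the gene stood above its 0 h mean of -0.14 at both times. The transcription factor Atf5 rose by 1.68 ± 0.15.

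Of the 3 that fell, Psat1, of serine synthesis, fell by 1.97 ± 0.13, Slc7a3, a transporter of cationic amino acids, by 1.62 ± 0.14 and Wars, tryptophanyl-tRNA synthetase, by 1.02 ± 0.13. With the slide as a block on the 8 arrays 5 members were called higher and 3 lower, and leaving out single arrays gave 7 to 10 higher. It was 7 without the second KO array of 12 h, the first WT array of 12 h or the first WT array of 24 h. The medians within slides 2, 3 and 4 were 0.35, 0.46 and 0.56. The letters TGATGNAA, a form of the amino acid response element, were in 7 of 24 promoters of the list (29.2%) and in 3 of the 10 called higher, against 2.33% of tested genes and 4.06% of the table. Over all genes called higher the share was 2.07%, and over those called lower 2.77%. The Asns match lies 16 bases before the start.

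Asns, chr6:7693210-7693309, minus strand: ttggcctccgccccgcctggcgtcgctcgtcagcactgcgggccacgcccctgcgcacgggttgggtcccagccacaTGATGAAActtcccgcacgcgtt

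The unfolded protein response had 5 members higher and 0 lower of 21 (median 0.40). Dnajb9, a co-chaperone of the endoplasmic reticulum, was at 2.70 and 2.34 (KO) and 2.21 and 2.26 (WT) at 24 h, against 0.79 and 1.405 (KO) and 0.71 and 1.37 (WT) at 12 h, with no overlap (step 1.31 ± 0.20, adjusted p = 0.00498). Herpud1, of protein degradation at that organelle, rose by 1.1 ± 0.16 and the transcription factor Ddit3 by 0.78 ± 0.12. The list median was 0.63 in session 1 and -0.00 in session 2, and 0.76, -0.04 and -0.02 within slides 2, 3 and 4, so the shift of the list as a whole was seen in 1 session.

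Of 24 cholesterol synthesis genes tested, 16 fell and 1 rose (median -0.88), the session medians were -0.85 and -0.97, and those within slides 2, 3 and 4 were -0.98, -0.80 and -0.96. With the slide as a block on the 8 arrays 12 were called lower, and leaving out single arrays gave 14 to 16. Relative to 0 h the median was -0.33 after 6 h, -0.59 after 12 h and -1.50 after 24 h, and at 24 h 0 of 24 were above 0 h.

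Idi1, isopentenyl diphosphate isomerase, was at 0.02 and 0.57 (KO) and -0.61 and 1.04 (WT) at 24 h, against 1.52 and 2.85 (KO) and 1.33 and 2.82 (WT) at 12 h. All arrays of 24 h were below those of 12 h (step -1.88 ± 0.19, 3.67-fold lower, adjusted p = 0.00166). Cyp51, lanosterol demethylase, was at -2.43 and -1.55 (KO) and -2.75 and -1.63 (WT) at 24 h, against -0.85 and 0.40 (KO) and -1.01 and 0.35 (WT) at 12 h. Here too the times did not overlap (step -1.81 ± 0.12, 3.51-fold lower, adjusted p = 0.000504), and the gene had not been called between 0 and 6 h.

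Hsd17b7, another sterol enzyme, fell by 1.72 ± 0.18 and Hmgcs1, which makes HMG-CoA, by 1.1 ± 0.14. Dhcr7, which catalyses the last step of 1 branch, rose by 1.03 ± 0.20. The call for Dhcr7 (0.90) ended with the slide as a block on the 8 arrays. The letters CCAAT, the motif of the factor NF-Y, were in 15 of 17 promoters of the list (88.2%) and in 9 of the 10 called lower, against 39.0% of tested genes and 37.9% of the table. The CCAAT share was 37.0% over all genes called lower and 43.7% over those called higher. In the cell cycle list, whose median step was 0.35, it was 67.9%. CCAAT was therefore not more frequent in falling genes in general. A form of the sterol regulatory element was also searched for and was in 0 of the 17 promoters. That form was in 0.16% of tested genes, too rare for 17 promoters to decide. The Idi1 stretch holds 2 CCAAT matches, both on the opposite strand, and the Cyp51 match lies 25 bases before the start.

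Idi1, chr13:8885506-8885605, plus strand: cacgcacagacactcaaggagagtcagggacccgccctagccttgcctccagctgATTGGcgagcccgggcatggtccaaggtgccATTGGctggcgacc
Cyp51, chr5:4104698-4104797, minus strand: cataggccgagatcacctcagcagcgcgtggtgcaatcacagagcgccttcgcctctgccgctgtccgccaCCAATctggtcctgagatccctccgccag

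Of 14 fatty acid synthesis genes tested, 5 rose and 0 fell (median 0.08). Fads1, a desaturase of polyunsaturated fatty acids, was at 0.80 and 1.30 (KO) and 0.80 and 1.25 (WT) at 24 h, against -0.78 and -0.66 (KO) and -1.11 and -0.55 (WT) at 12 h. The genotypes were alike and the times clearly apart (step 1.81 ± 0.12, 3.51-fold higher, adjusted p = 0.000479). The elongases Elovl6 (1.19 ± 0.21) and Elovl5 (0.93 ± 0.12) and the desaturase Scd2 (0.92 ± 0.15) also rose. Elovl6 was not called in the fit to all 16 arrays or under normexp (0.23). Of 16 targets of the oxysterol receptor LXR and lipid efflux genes 3 fell and 0 rose (median -0.18), led by the lipase Lpl (-1.29 ± 0.16). The 3 are 18.8% of the list, near the 15.1% of all genes tested that fell. The calls for Plin2 and Cd36 each ended without any of several arrays in turn.

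Of 36 cell cycle and mitosis genes 14 rose and 5 fell (median 0.35), and their median relative to 0 h was -4.04 after 12 h and -3.05 after 24 h. The median was 0.13 in session 1 and 0.58 in session 2, and -0.02 under normexp, where 8 rose and 5 fell. Nuf2, a kinetochore protein, was at -2.82 and -1.80 (KO) and -2.59 and -2.05 (WT) at 24 h, against -4.53 and -3.85 (KO) and -4.18 and -3.87 (WT) at 12 h. The times did not overlap (step 1.79 ± 0.14, 3.47-fold higher, adjusted p = 0.000805), and its 0 h mean was 1.16. E2f2, a transcription factor of the S phase, rose by 1.90 ± 0.30, Kif2c, a microtubule-depolymerising kinesin, by 1.82 ± 0.26 and Racgap1, of cytokinesis, by 1.64 ± 0.29. Kif2c (0.15) and Racgap1 (0.19) were not called under normexp. At 12 h the Kif2c probe was well above background on 1 of 4 arrays and the Racgap1 probe on 2. Ccnd2, a G1 cyclin that LPS had raised, fell by 2.57 ± 0.33, and Ccnb2, a mitotic cyclin, by 1.31 ± 0.26.

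Of 30 genes of DNA replication and nucleotide synthesis 9 rose and 5 fell (median 0.47). Pola1, the catalytic subunit of DNA polymerase alpha, was at -1.81 and -1.44 (KO) and -1.61 and -1.07 (WT) at 24 h, against -4.08 and -3.13 (KO) and -3.23 and -2.34 (WT) at 12 h, with no overlap (step 1.71 ± 0.17, adjusted p = 0.00155). Prim1, the primase, rose by 1.35 ± 0.25 and Pold1, of DNA polymerase delta, by 1.01 ± 0.14, whereas Cdt1, a licensing factor, fell by 1.12 ± 0.17. Pcna, bright at both times (means of 5.48 at 24 h and 6.09 at 12 h), fell by 0.61 ± 0.12. Its call ended without the first KO array of 12 h or the first WT array of 24 h. Rrm2, of ribonucleotide reductase, had a step of 1.31 that turned to -0.06 under normexp. At 12 h its probe was well above background on 1 of 4 arrays. Leaving out single arrays gave 4 to 12 higher genes, 4 without the first KO or the first WT array of 24 h and 5 without either KO array of 12 h or the second KO array of 24 h.

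**Figure D4:**
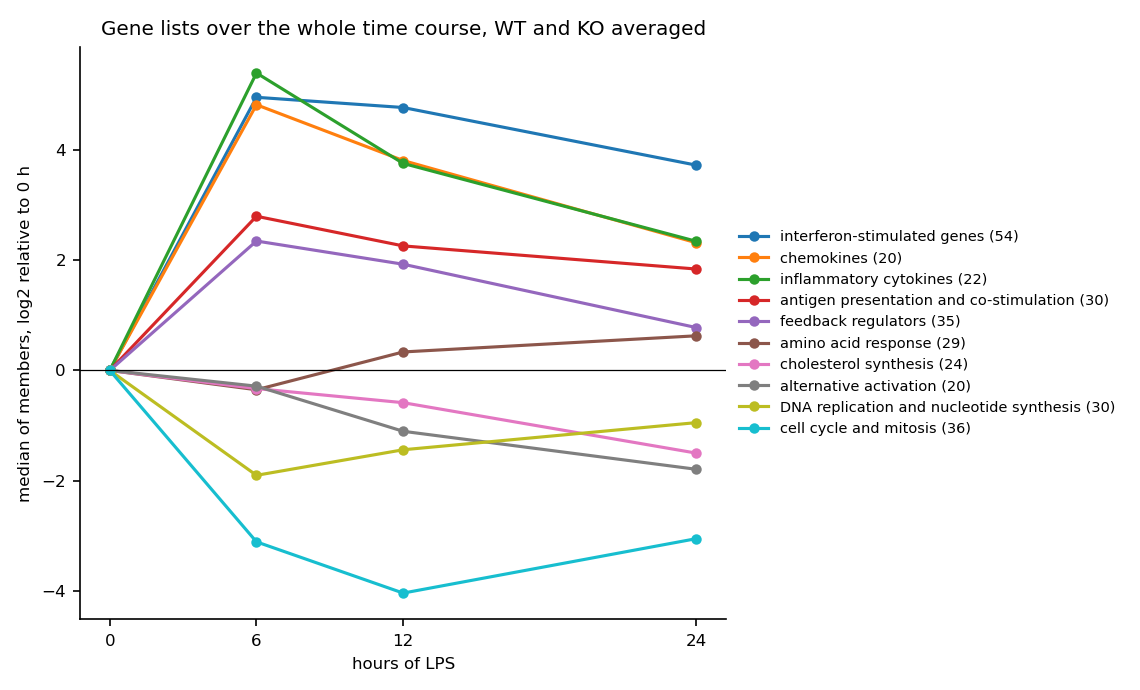
Median of the members of 10 gene lists over 0, 6, 12 and 24 h of LPS (horizontal), as log2 relative to 0 h with WT and KO averaged (vertical), and the number of members in parentheses. Cytokines and chemokines peak at 6 h and decline to 2.34 and 2.32 at 24 h. Interferon-stimulated genes decline from 4.77 at 12 h to 3.72 at 24 h. Cell cycle genes are lowest at 12 h (-4.04), and cholesterol synthesis is lowest at 24 h (-1.50).

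Of 30 genes of macrophage identity 7 fell and 2 rose, and their median of -0.23 turned to 0.02 after quantile normalization. Csf1r, the M-CSF receptor, was at 7.19 and 5.77 (KO) and 6.59 and 5.32 (WT) at 24 h, against 6.88 and 5.45 (KO) and 6.29 and 5.31 (WT) at 12 h. The ranges overlapped and followed the session (step 0.24 ± 0.13, adjusted p = 0.204), but after quantile normalization it was called (0.53). Of the 9 macrophage markers 1 (11.1%, beside 15.1% of all genes tested), Cd14, the co-receptor of LPS, fell (-0.83 ± 0.16, not called after quantile normalization, -0.48). Siglec1, a sialic acid receptor that interferon induces, was at 4.06 and 4.27 (KO) and 4.21 and 3.85 (WT) at 24 h, against 3.04 and 3.12 (KO) and 2.87 and 2.92 (WT) at 12 h. It was higher on every array of 24 h (step 1.11 ± 0.13, 2.15-fold higher, adjusted p = 0.00236). The receptor tyrosine kinase Axl fell by 1.45 ± 0.22, the lipid receptor Trem2 by 1.15 ± 0.13 and the integrin Itgax by 1.14 ± 0.16.

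Markers of alternative activation were 12 lower and 1 higher of 20 (median -0.65), and 4 of the 12 are also counted in lists above, Ccl22, Ccl17, Socs2 and Ccl24, the last outside the naming rule and looked up after its values were seen. Mrc1, the mannose receptor, was at -0.09 and -0.58 (KO) and -0.38 and -0.63 (WT) at 24 h, against 1.26 and 1.18 (KO) and 1.48 and 1.24 (WT) at 12 h. The arrays of each time were closely grouped and apart (step -1.71 ± 0.13, 3.27-fold lower, adjusted p = 0.000723), and the means ran 5.14, 3.16, 1.29 and -0.42 over 0, 6, 12 and 24 h. Chil3, a chitinase-like protein, fell by 2.06 ± 0.33. Pparg, a nuclear receptor of lipid metabolism, rose by 0.74 ± 0.13.

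Of 30 genes of glycolysis and hypoxia 8 fell and 3 rose (median 0.04), with the lactate transporter Slc16a1 (-1.36) and the phosphofructokinase Pfkp (-0.99) lower and the oxygen sensor Egln1 (0.88) higher. The 2 probes of the glucose transporter Slc2a3 disagreed (1.29 and -1.09). Of 27 genes of oxidative stress 5 fell and 1 rose (median -0.19, and 0.07 after quantile normalization), and Mt2, a metallothionein, fell by 2.86 ± 0.20. Of 14 iron genes 3 fell and 2 rose (21.4% and 14.3%, beside 15.1% and 13.3% of all genes tested, median 0.30). Hamp, the hormone hepcidin that limits iron export, fell by 1.38 and the phagosomal metal transporter Slc11a1 rose by 1.04 ± 0.20. At 24 h the Hamp probe was well above background on 2 of 4 arrays. Of 31 genes of apoptosis and survival 15 fell and 2 rose (median -0.58), among them the death ligand Tnfsf10 (-2.22 ± 0.22) and the inflammatory caspase Casp4 (-1.11 ± 0.14). Of 30 lysosome and autophagy genes 4 fell and 2 rose (median -0.20, and 0.11 after quantile normalization), and of 27 oxidative phosphorylation genes 2 fell and 0 rose (median 0.07). The shares that fell, 13.3% and 7.41%, were not above the 15.1% of all genes tested.

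Markers of other cell types were measured beside these lists. Of 7 neutrophil markers tested 4 fell and 0 rose, and their summed level was 0.75 to 11.3 times the 75th percentile at 24 h and 1.39 to 29.3 times at 12 h. S100a9 was among them (-1.76 ± 0.34). Of 6 dendritic cell markers 2 fell, Fscn1 (-2.06 ± 0.25) and Ccr7 (-1.35 ± 0.14), with a summed level of 1.34 to 2.37 at 24 h and 3.65 to 10.8 at 12 h. Of 7 osteoclast markers 3 fell, of 6 stromal markers 1 (Pdgfrb, -2.46 ± 0.17), of 4 endothelial markers 2 (Cdh5 and Kdr), of 2 megakaryocyte markers 1 (Pf4, -0.98 ± 0.18), and of 5 B cell markers 1 rose (Cd79b, 1.57 ± 0.32). Of 2 erythroid markers 0 changed. These sets are small, and the stromal share of 16.7% was near the 15.1% of all genes tested that fell. The part of such cells in the results above was not tested.

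The late step ran mostly against the change of the first 6 h. Early classes came from the 8 arrays of 0 and 6 h, which the late step did not use, though both sets share slides and sessions. Of 16112 genes tested there, 5145 (31.9%) were raised at 6 h and 4976 (30.9%) were lowered. Of the raised genes 1874 (36.4%) were lower at 24 h than at 12 h and 57 (1.11%) were higher, with a median step of -0.39. Of the lowered genes 1785 (35.9%) were higher and 169 (3.40%) were lower, with a median step of 0.37. With no replicate block in either fit these shares were 8.74% (298 of 3409 raised genes) and 9.95% (361 of 3627 lowered genes). Of the 5991 genes not called early 312 (5.21%) were higher and 410 (6.84%) lower. Seen from the late calls, 75.6% of the genes that fell had been raised early and 82.3% of those that rose had been lowered early. The medians on single pairs of arrays had the same sign in all 4 pairs, -0.33 to -0.50 for raised genes and 0.28 to 0.43 for lowered genes.

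The late step grew with the early one. Among 157 genes raised by more than 6 log2 units at 6 h 75.2% were lower at 24 h than at 12 h and 0% higher, with a median step of -1.27. Among 156 genes lowered by 4 units or more 66.7% were higher and 1.28% lower, with a median of 1.195. Among the 9969 genes within 1 unit of no early change 7.54% were higher and 8.01% lower.

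**Figure D5:**
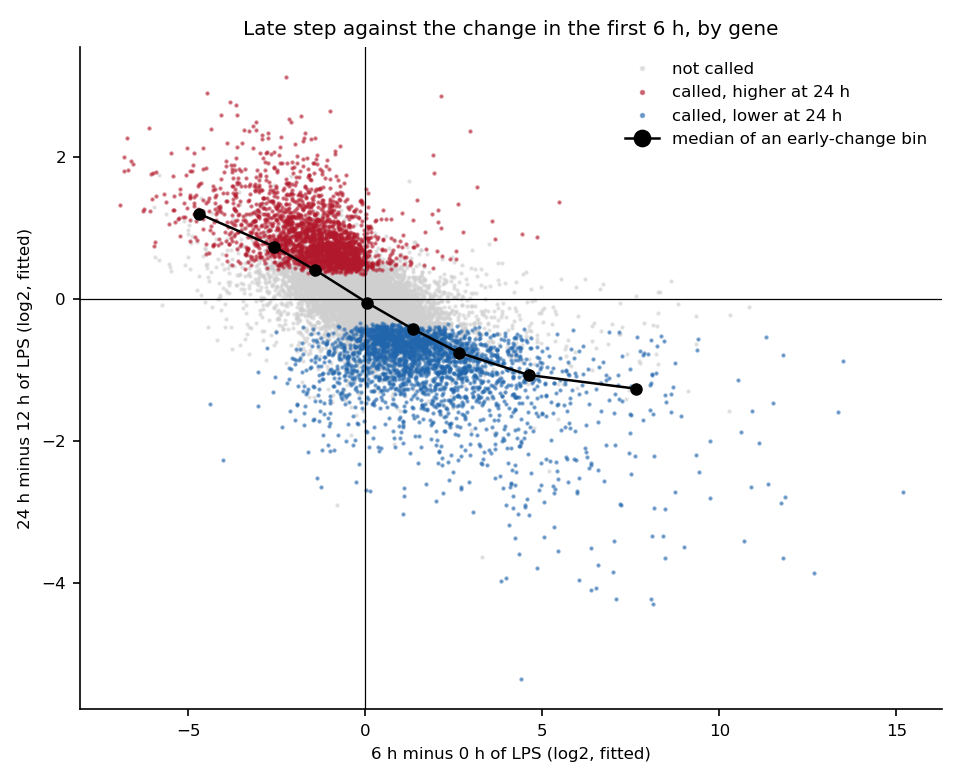
Step from 12 to 24 h (vertical, log2) against the change from 0 to 6 h (horizontal, log2) for each gene, with called late steps in red (higher at 24 h) and blue (lower at 24 h), others in grey, and the median of each early-change bin in black. The medians run from 1.195 in genes lowered most at 6 h to -1.27 in genes raised most.

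Most of these genes had not returned to their 0 h level. Genes were chosen here by both steps, so the following is a description. Of the 1874 genes raised early and lower late, 1507 (80.4%) were still above 0 h at 24 h, and their median relative to 0 h was 2.07, 1.62 and 0.67 after 6, 12 and 24 h. Where the distance at 12 h was over 1 log2 unit (1355 genes) a median of 55.8% of it was left at 24 h. Of the 1785 genes lowered early and higher late, 1316 (73.7%) were still below 0 h at 24 h, with medians of -1.58, -1.30 and -0.44, and 48.3% of the 12 h distance was left in 1124 genes.

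A smaller set went on in the early direction. Slc6a13, a transporter of GABA and related amino acids, was at 1.02 and -0.48 (KO) and -0.23 and -1.48 (WT) at 24 h, against -2.23 and -3.56 (KO) and -2.91 and -3.91 (WT) at 12 h. All arrays of 24 h were higher (step 2.86 ± 0.17, 7.26-fold higher, adjusted p = 0.000412), and the means ran -6.10, -3.96, -3.15 and -0.29 over 0, 6, 12 and 24 h. Siglec1, Orm1 and Orm2 belong to the same class of 57. In the class of 169 that fell in both periods were Mrc1 and Ccnb2. Among genes not called early, Asns, Ddit3, Egln1 and Slc11a1 rose late, and Cyp51, Hsd17b7, Hmgcs1, Trem2, Chil3, Socs2 and Dcstamp, a fusion receptor of osteoclasts, fell late.

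The step was also compared between genotypes. No gene passed for a difference between the KO and the WT step (0 of 16368, 0%, limma, smallest adjusted p = 0.535), and 669 (4.09%) were at an unadjusted p under 0.05. The test had 3 residual degrees of freedom, with 2 arrays per genotype and time, so it could miss differences. The absence of calls does not show that the steps were alike. Without the second WT array of 12 h 2 genes passed, and in the other alternatives run 0 did. Of the 5 genes with the smallest p-values, 4 had a probe that was not well above background on every array. Sod3, extracellular superoxide dismutase, had a step of -3.32 in KO and -0.13 in WT (difference -3.19 ± 0.35), and its probe was well above background on 2 of the 4 arrays of 12 h and 0 of 24 h. The others were Cyp2d10, Fate1, Kcna6 and Tm4sf4.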

How the data were processed

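RNA of 16 samples was hybridised to 1-colour Agilent arrays (Cy3), 4 per slide on 4 slides. Per the file headers, spots were quantified by Agilent Feature Extraction, version 10.5.1.1. The deposited scanner files hold the processed signal as intensity, background-subtracted and not normalized between arrays, per the file headers. The authors' deposited table of log2 values was used as an alternative. Here log2 intensity minus the 75th percentile of each array was taken, control and outlier spots left out, spots of a probe averaged, and a gene was represented by its brightest probe among those well above background on both arrays of at least 1 of the 4 groups. Of the 41174 probes, 97 without a value on all arrays were left out. Of the remaining 41077, 26869 were named by accession, 5559 by symbol and 891 by synonym through RefSeq, and 7758 kept the file's name.

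The 24 h and 12 h arrays were compared in limma 3.58.1 (R 4.3.3) with time, genotype and replicate number as terms on 8 arrays, which left 4 residual degrees of freedom, and Benjamini-Hochberg adjustment over 16368 genes at 0.05. Replicate numbers marked scan sessions, and deviations from group means of same-numbered arrays correlated at 0.58 to 0.79 in 6 pairs. The number of arrays limits the precision. Named genes had a reference symbol that is not a clone or predicted-gene name. Among called genes with the same sign in all 4 pairs, the 15 largest falls and rises were named. Up to 4 such genes each way were taken from each list. The 5 smallest p-values of the genotype difference and a fixed set were added. The members and gene lists were chosen with earlier results of these data known. Alternatives were the replicate term, slide blocks, all 16 arrays, background correction, normalization, filters, probe summary and leaving out each array. The fit was tested on simulated data. Some genes that the naming rule gives are not reported here.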

Additional observations from a re-analysis of the deposited data

Results flagged for a closer look

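On the 4 arrays of 24 h, Rtn4r was at -3.73 on the KO array of session 2, and the other 3 lay between -3.28 and -3.21. It was the 1 case among 72 sets of 4 arrays in which the lowest or highest array stood far from the rest by Dixon's test, and chance gives such a case in about 5% of sets.

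In 4 genes every KO pair of arrays moved one way between 12 and 24 h and every WT pair the other way. The KO step minus the WT step was -2.41 for Cyp2d10 (KO -1.02, WT 1.39), -2.64 for Fate1 (KO -0.65, WT 1.99), 2.80 for Kcna6 (KO 2.48, WT -0.32) and -2.24 for Tm4sf4 (KO -0.94, WT 1.29). In limma's test of the difference the adjusted p was 0.535 for Cyp2d10 and 0.572 for each of the others, so none passed. Opposite signs in all pairs were found in 727 of the genes tested (4.44%).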

How the results depend on the processing

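The number of genes called, 4649, was 820 without the replicate block, all of them among the 4649, and 2473 and 2620 with the slide as a block on 8 and on 16 arrays. It was 880 in WT arrays alone and 1336 in KO arrays alone, and leaving out single arrays gave 2803 to 5099. Steps with the slide as a block on 8 arrays were those without the first WT array of 12 h. No called gene among those named changed direction when an array was left out. Apart from the fixed set, called genes were named only with the same sign in all pairs, so this follows in large part from the selection. Of 185 named steps 180 were called, and 145 of those held without each of the 8 arrays in turn, while 35 did not in at least 1 case. Without the replicate block, the pairing of scan sessions, 100 named calls were lost, against 102 in WT arrays alone, 81 in KO arrays alone, 53 with the slide as a block on 8 arrays, 16 after quantile normalization, 11 under normexp and 0 with the authors' table or scaling to the median. The genotype difference gave 0 to 2 calls when single arrays were left out. The median late step of early-raised genes was -0.39, and -0.85 where the early change was at least 2 (log2) and -0.51 with no replicate block in both fits. For early-lowered genes it was 0.37, and 0.78 and 0.46 in the same settings. The share of early-raised genes lower at 24 h was 36.4%, and 67.9% and 8.74% there, and that of early-lowered genes higher at 24 h 35.9%, and 58.5% and 9.95%.

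Some values turned sign. Of the 4649 called genes 129 had the other sign under normexp, 12 with the mean of the detected probes of a gene and 1 after quantile normalization. Among named genes, Rrm2 had -0.061 under normexp. Ifnb1, not called, had 0.094 with the slide as a block on 16 arrays, 0.0086 in WT alone and 0.0025 in session 2. Ccl5, not called, had 0.38 with that slide block and 0.12 after quantile normalization. Arg1, not called, had -0.40 under normexp, -0.29 in WT alone, -1.39 in session 1, and -0.70, -0.35 and -0.042 without the second KO array of 12 h, the second KO array of 24 h and the second WT array of 24 h, within a range of -0.70 to 0.86 over single arrays left out. The cause was not tested. Normexp on the signals as deposited gave 0 calls. Local backgrounds over 10 times the array median, 2 to 21 spots on 5 of the 16 arrays and 4 of the 8 compared, were replaced by that median, a choice made after seeing the data. Genes near background have the least certain steps.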
